A study of Equus caballus with 24 samples.

Results

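The genes described here are those whose level in every sarcoid lay well below their level in skin, with no overlap between the groups. They were defined from the measured values. After scaling, a gene belonged to the set when its highest value among the 12 sarcoids was at most 0.5 times its lowest value among 11 skin libraries, and when its median in those 11 libraries was at least 5 CPM (counts of a gene per 1000000 reads counted in genes, after composition scaling). Of 30371 gene IDs in the files, 14930 were kept by a filter on low counts, and 48 of the 14930 met the rule. The rule left skin 9 out of the skin reference, so the values of skin 9 did not select these genes.

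The samples were pieces of horse tissue, 12 labelled as tumour (sarcoid) and 12 as skin control. No treatment, age, breed or body site is given in the labels used here, and nothing says which pieces share a horse. Each library is called by its group and title number, and 4 sarcoid titles carry an L after the number that the labels do not explain. RNA came from stabilised tissue with ribosomal RNA depleted, so each library mixes every cell type in the piece.

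The equine sarcoid is a skin tumour of fibroblast type, widely linked to bovine papillomavirus. It grows in the dermis beneath an epidermis that may be thickened, thinned or ulcerated. Normal skin holds keratinocytes, hair follicles, sebaceous and sweat glands, melanocytes, vessels, nerves, smooth muscle and fat beside the dermal fibroblasts, and a piece of tumour may hold fewer of these. In bulk tissue, fewer cells of a type and less RNA per cell cannot be told apart.

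The files give Ensembl gene IDs without names, and of the 30371 IDs 0 were found in a RefSeq table that lists 39335 genes of the horse. What each gene encodes is therefore not given, no sequence is shown, and neither tissue could be checked against marker genes. The 48 genes are numbered here by their median in the 11 skin libraries, from 1 (highest) to 48 (lowest), and 2 are also given by their ID. The depth, as reads assigned to genes, was 9673480 to 31769803 per library, with medians of 12288953 in sarcoid and 14140532 in skin. Skin 9, skin 16 and sarcoid 4 stood apart. Skin 9 differed from the other skin libraries over many genes, skin 16 was the highest of the 11 reference libraries in 20.01% of all genes tested, and sarcoid 4 had the smallest scaling factor (0.468). Whether the skin label of skin 9 is right was not tested, and the fold changes of the set over all skin libraries are also given without it.

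The 48 genes were well expressed in skin. Their medians over the 11 skin libraries ran from 5.58 to 334 CPM, with 8 genes at 100 CPM or more, 31 between 10 and 100 CPM, and 9 under 10 CPM. The smallest number of reads behind any value in those libraries was 28. In sarcoid the medians ran from 0 to 25.1 CPM, and 21 genes had no read in at least 1 sarcoid. Summed over the 48 genes, the level was 2694 to 4603 CPM in the 11 skin libraries (3298 ± 633, mean ± SD, n = 11) and 70.5 to 850 CPM in the sarcoids (343 ± 287, n = 12). As a share of all gene counts before scaling, the 48 genes took 0.372% ± 0.095 in the 11 skin libraries and 0.0389% ± 0.0417 in sarcoid. These levels restate the rule and describe the genes it chose.

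**Figure D1:**
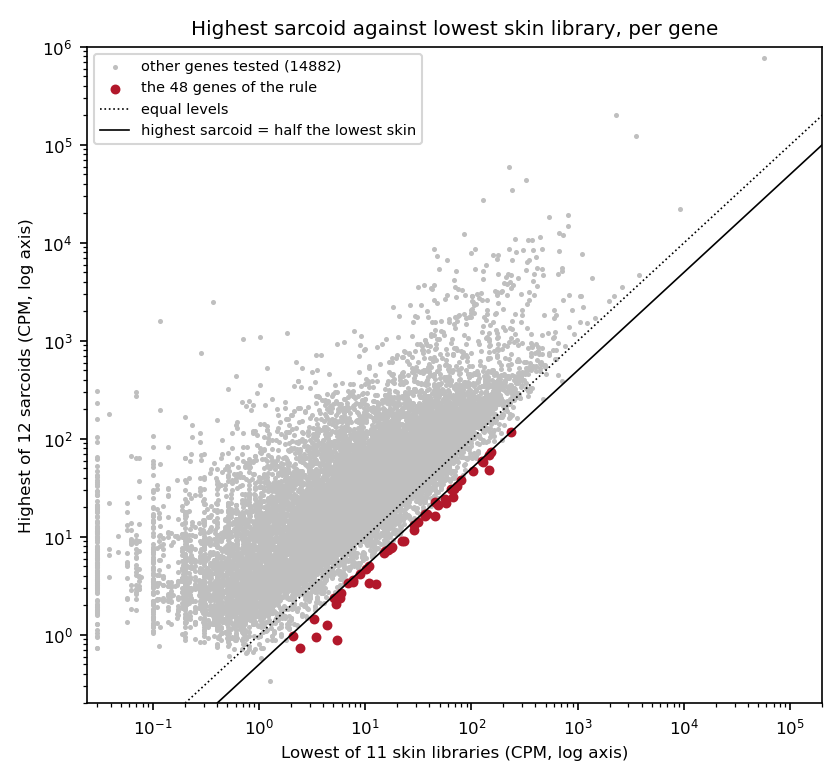
Each point is 1 of the 14930 genes tested, placed by its lowest value in the 11 skin libraries and its highest value in the 12 sarcoids (both CPM, log axes, values under 0.03 CPM drawn at 0.03). The 48 red genes lie on or below the solid line, where the highest sarcoid is 0.5 times the lowest skin library, and most lie close to that line.

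Most of the genes met the rule narrowly. The ratio of the lowest skin library to the highest sarcoid had a median of 2.22 over the 48 genes and a maximum of 6.11. The genes just inside the limit had ratios of 2.01, 2.02 and 2.03, and the genes just outside it 1.999, 1.997 and 1.989, so no gap separates the set from its neighbours. Genes with every sarcoid below every one of the 11 skin libraries, at any level and by any margin, made up 5.25% of the 14930 tested.

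The gene with the widest gap was ENSECAG00000039827, number 44. In skin it had a lowest value of 5.37 CPM, a median of 8.13 CPM and a highest value of 23.2 CPM over the 11 libraries. In sarcoid 6 libraries had no read, 3 had a single read, and sarcoids 2, 6 and 10 had 8, 13 and 10 reads, which put the highest at 0.879 CPM. The groups did not overlap, and the highest sarcoid lay 6.11 times below the lowest of the 11 skin libraries. Its log2 fold change, sarcoid over all 12 skin libraries, was -6.13 ± 0.68 (SE, edgeR quasi-likelihood test, adjusted p = 1.75e-07). The gene was chosen on this contrast, so its p-value is a description and not a test. Skin 9 held the highest value of any library for ENSECAG00000039827, 74.2 CPM from 1662 reads, and without skin 9 the log2 fold change was -5.56.

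The gene with the highest skin level was ENSECAG00000021418, number 1. Over the 11 skin libraries it had a lowest value of 234 CPM (skin 13), a median of 334 CPM and a highest value of 420 CPM (skin 16). The sarcoids spanned a far wider range, from a low of 0.327 CPM (sarcoid 74L) through a median of 23.4 CPM to a high of 116 CPM (sarcoid 6). Sarcoids 4, 9, 12 and 74L lay under 2 CPM, with 5 to 20 reads each, while sarcoids 2, 6, 10 and 65L lay above 60 CPM. The log2 fold change of ENSECAG00000021418 was -3.02 ± 0.73 (SE, edgeR adjusted p = 0.00135). This gene met a rule built on the same contrast, so its p-value is a description as well. In skin 9 it stood at 3.79 CPM, inside the sarcoid range and below every other skin library.

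All 48 genes were called lower in sarcoid by edgeR's quasi-likelihood test over all 24 libraries, against 26.3% of the 14930 genes tested. The rule used this contrast, so nothing is read from that count. The log2 fold changes ran from -7.96 to -1.99 with a median of -3.22, and the median over all genes tested was 0.02. Without skin 9 the 48 genes were all called lower, from -8.08 to -2.11 with a median of -3.34 (largest edgeR adjusted p = 0.0012). Over all genes tested in that fit, 3987 were called lower. The rule was set on these same skin libraries without skin 9, so nothing is read from this count or p-value either.

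By medians, 47 of the 48 genes were at least 4-fold lower in sarcoid than in the 11 skin libraries, 42 at least 8-fold and 16 at least 16-fold. For 9 genes the sarcoid median was below 0.553 CPM, the level of 3 reads in the library with the fewest scaled reads, and that floor was used in place of the median, so their folds are lower bounds. The smallest fold was 3.61, for gene 9, which had a skin median of 90.7 CPM and a sarcoid median of 25.1 CPM. Among the genes not at the floor the largest fold was 291, for gene 2. That gene had 146 to 841 CPM in the 11 skin libraries and 0.202 to 48.5 CPM in the sarcoids, with a sarcoid median of 0.966 CPM.

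The depth of the fall differed strongly between tumours, and the same tumours stood high across the set. On the log2 scale with 0.5 CPM added, the median of the 48 genes relative to their skin medians was -1.80 in sarcoid 6, -2.07 in sarcoid 2, -2.09 in sarcoid 10 and -2.47 in sarcoid 65L. Sarcoids 11 and 71L followed at -2.82 and -3.22, then sarcoids 3 and 67L at -3.97 and -4.04. The lowest were sarcoids 9, 74L, 12 and 4, between -4.59 and -4.86. The 11 skin libraries lay between -0.22 and 0.44 on this scale.

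**Figure D2:**
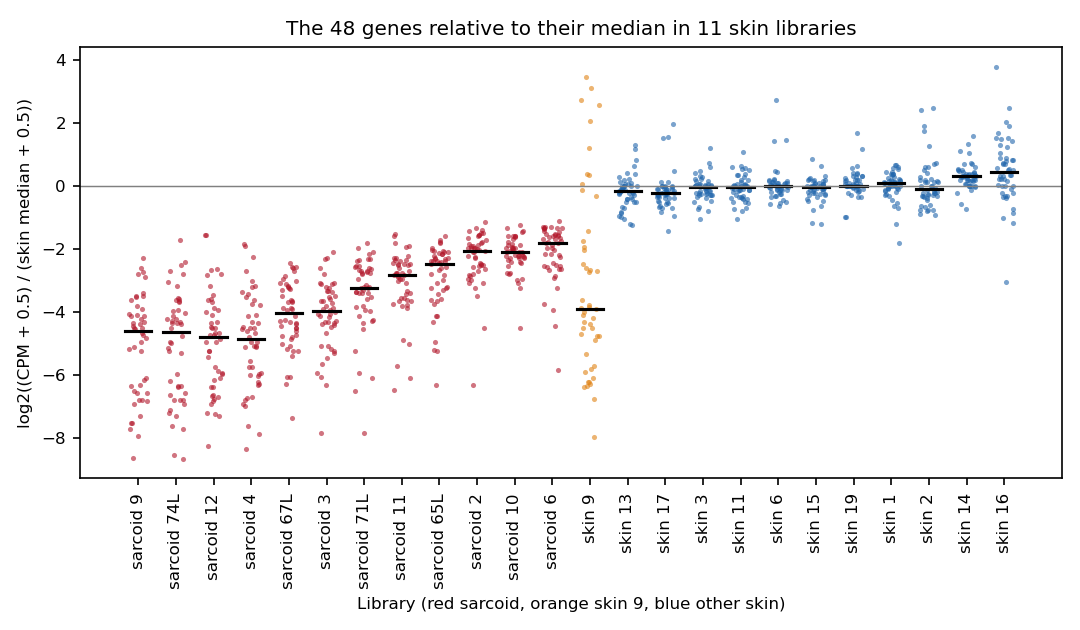
Each point is 1 of the 48 genes in 1 library, as log2 of its CPM plus 0.5 over its median in 11 skin libraries plus 0.5, and black bars are medians over the 48 genes. Sarcoids (red) run from -4.86 to -1.80 by their medians, the 11 skin libraries (blue) lie between -0.22 and 0.44, and skin 9 (orange) spreads over both ranges.

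Sarcoid 6 gave the highest value among the sarcoids in 24 of the 48 genes, sarcoid 10 in 13, sarcoid 2 in 7, sarcoid 65L in 3 and sarcoid 12 in 1. These libraries therefore set the limit of the rule. Over all genes tested, sarcoids 6, 10, 2, 65L and 12 were highest in 7.68%, 6.15%, 12.0%, 4.82% and 9.80%. Among other genes called lower in sarcoid with a skin median of at least 5 CPM, the shares were 21.6%, 10.3%, 22.6%, 5.73% and 5.66%. Sarcoids 6, 10 and 2 were among the 3 highest sarcoids in 45, 38 and 37 of the 48 genes. Sarcoid 9 was among the lowest 6 in 47 of the 48, and sarcoids 4 and 74L each in 44. In sarcoids 4, 12 and 74L 40 of the 48 genes were at or below a sixteenth of their skin median, in sarcoid 10 only 1 gene and in sarcoid 2 only 2 genes.

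A similar but smaller spread was seen in 3107 other genes that were called lower in sarcoid and had a skin median of at least 5 CPM. Their median relative level, on the same scale, was -0.55 in sarcoid 6, the highest tumour here too, and -1.37 in sarcoid 4, the lowest. In sarcoid 4, 19.2% of these other genes were at or below a sixteenth of their skin median, against 0.161% in sarcoid 10. The order of the tumours in the 48 genes thus had the same ends in the wider group of lowered genes. No test was made, since both sets were chosen on the same contrast.

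Within the tumours the genes moved together. Over the 12 sarcoids, the Pearson correlation of log2 CPM between pairs of the 48 genes had a median of 0.78 (1128 pairs), and 81.4% of pairs exceeded 0.5. The median was 0.24 among the 3107 other lowered genes and 0.00 among all 10800 genes with a skin median of at least 5 CPM. Over the 11 skin libraries the median among the 48 genes was only 0.21. The points of each correlation share libraries and scaling factors. Over the sarcoids, median SDs of log2 CPM were 1.67 for the 48 genes, 0.52 for other lowered genes and 0.55 for all genes tested. Over the 11 skin libraries the median SD of the 48 genes was 0.50. The sets thus differ in spread as well, and its part in the correlations was not tested.

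For 44 of the 48 genes, the median correlation with the other 47 over the sarcoids was above 0.5, and it reached 0.90. Genes 26, 46 and 47 fell short, with highest sarcoid values of 1.26, 0.941 and 0.742 CPM. Genes 44 and 48, at most 0.879 and 0.965 CPM in sarcoid, had median correlations of 0.65 and 0.66. Gene 38 also fell short. Gene 38 had 12 to 50 reads per sarcoid (gene 46 had 1 to 12), yet its median correlation was 0.01. Its sarcoid values were nearly even, from 0.958 to 3.41 CPM with a median of 2.52 CPM, and its highest was in sarcoid 12, a tumour where most of the set was very low. In the 11 skin libraries gene 38 ran from 6.91 to 19.6 CPM.

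**Figure D3:**
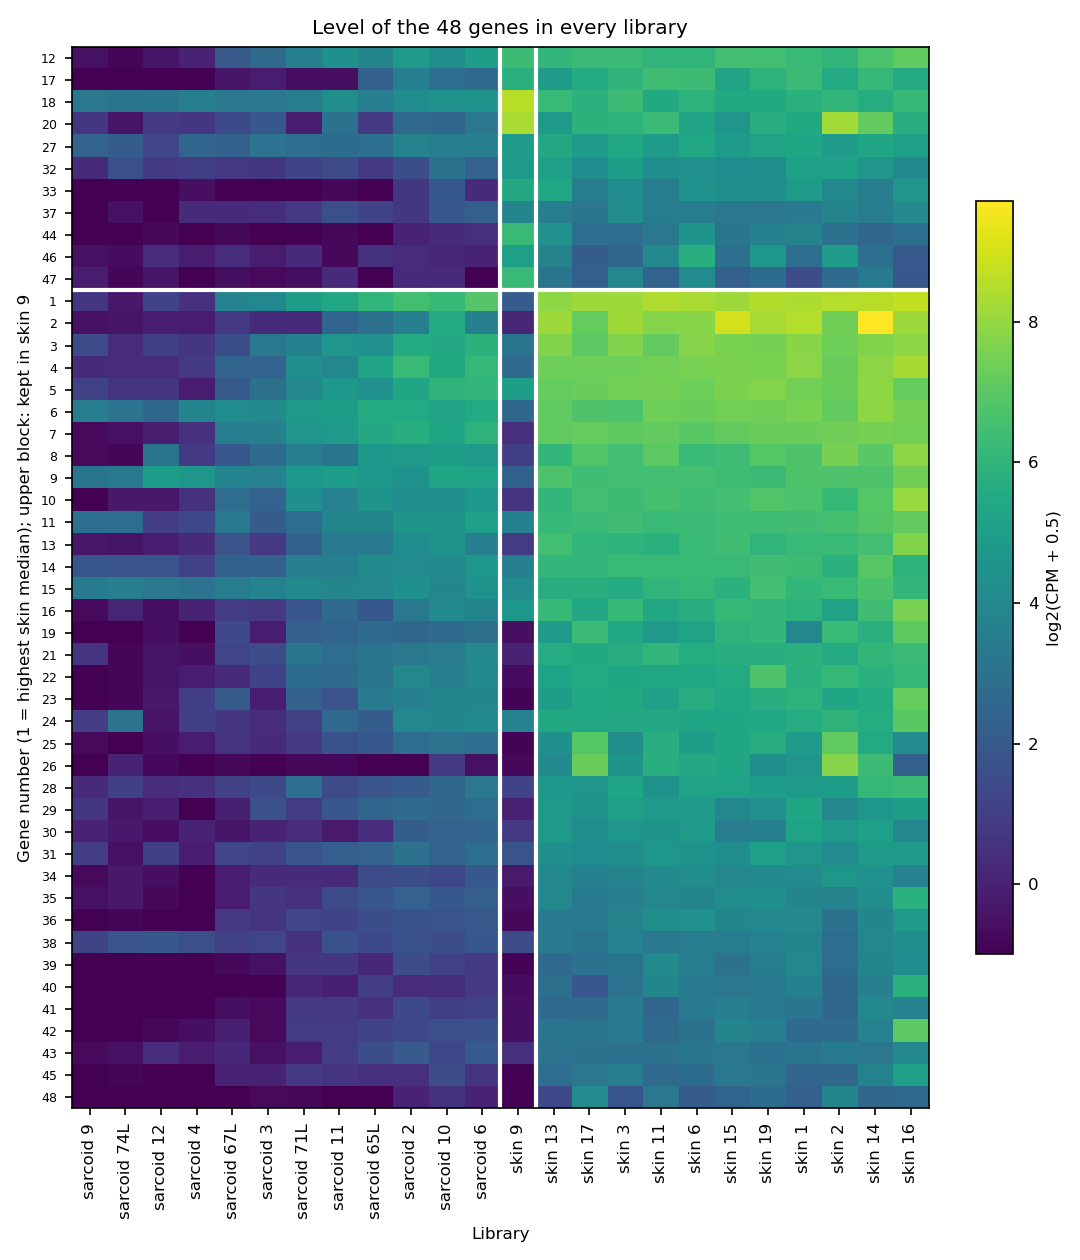
Colour gives log2 of CPM plus 0.5 for the 48 genes (rows, numbered from the highest skin median) in the 24 libraries (columns, sarcoids and skin each ordered by the summed level of the set). The upper block holds 11 genes within or above the skin range in skin 9, and the lower block 37 genes below it. Within the sarcoids most rows brighten from left to right, which the ordering of the columns by these same genes favours.

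The SD of log2 CPM was larger over the sarcoids than over the 11 skin libraries in 46 of the 48 genes (95.8%), against 77.4% of all genes tested and 77.6% of the other lowered genes. The median SD was 1.67 in sarcoid and 0.50 in skin for the 48 genes. The corresponding medians over all genes tested were 0.55 and 0.38. The rule sets a floor for the skin values and none for the sarcoid values, and so favours genes of this kind. These SDs describe the genes it chose.

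A few genes held nearly even low levels in every tumour. Gene 15 ran from 7.93 to 21.3 CPM in sarcoid (median 13.7 CPM) and from 47.9 to 98.2 CPM in the 11 skin libraries. Gene 18 ran from 8.43 to 22.5 CPM in sarcoid and from 45.4 to 79.7 CPM in the same 11 libraries. In both, the highest sarcoid was 2.69 and 2.67 times the lowest. For gene 1 it was at least 210 times, a lower bound with the floor of 0.553 CPM in place of its lowest value. Gene 7 had the most even level in skin, 125 to 182 CPM over the 11 libraries, and in sarcoid its extremes were sarcoid 9 with 0.101 CPM and sarcoid 6 with 59.8 CPM.

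Some genes instead varied widely among the 11 skin libraries. There gene 26 ran from 4.35 CPM in skin 16 through a median of 39.3 CPM to 215 CPM in skin 2. Gene 42 lay between 5.86 and 13.8 CPM in 10 of the 11 skin libraries and at 129 CPM in skin 16. Skin 16 was the highest of the 11 skin libraries in 23 of the 48 genes, and in 27.8% of the other lowered genes. The rule uses the lowest skin library, which was skin 16 in 5 of the 48 genes. The part of skin 16 in the set was not tested. When skin 16 was left out, 104 genes met the rule, the 48 included.

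Skin 9, which did not enter the skin reference, divided the 48 genes. In 37 of them its level was below the lowest of the other 11 skin libraries, and in 36 of these it was at or below the highest sarcoid. In 6 genes skin 9 lay within the range of the other skin libraries, and in 5 it lay above all of them. Skin 9 was below the lowest of the others in 22.7% of all genes tested and above the highest in 21.6%. Among the 3107 other lowered genes the share below was 45.6%. With 1 library these are descriptions without a test.

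In the 37 genes, the level in skin 9 ranged from 0 to 30.5 CPM with a median of 0.848 CPM, which was at most 0.371 times the skin median of the gene. Gene 2 stood at 0.625 CPM there, against a skin median of 281 CPM, and gene 7 at 0.848 CPM against 147 CPM. The highest, gene 5, had 30.5 CPM in skin 9 and a skin median of 171 CPM. Gene 16 alone lay between the groups, at 25.2 CPM, with 17.1 CPM in the highest sarcoid and 36.1 CPM in the lowest other skin library.

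The 11 genes within or above the skin range in skin 9 were numbers 12, 17, 18, 20, 27, 32, 33, 37, 44, 46 and 47. Their level there was 14.2 to 382 CPM, from 0.801 to 11.8 times the skin median of the gene. Gene 18 reached 382 CPM in skin 9 and at most 79.7 CPM in any other skin library. Gene 20 reached 331 CPM, with 23.3 to 304 CPM in the others. The genes 33, 44 and 47 also lay above every other skin library, at 43.3, 74.2 and 73.5 CPM.

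**Figure D4:**
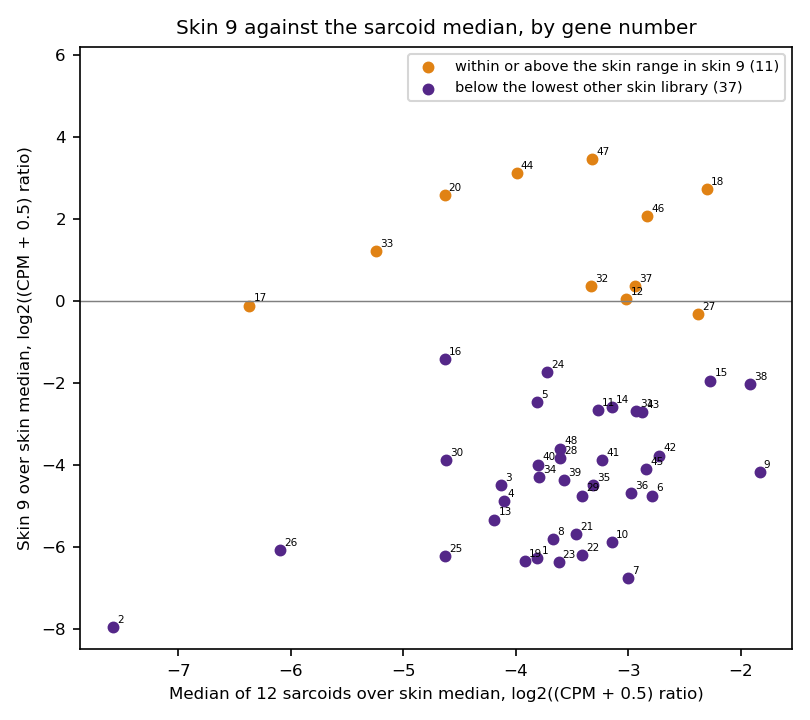
For each of the 48 numbered genes, the vertical axis gives skin 9 and the horizontal axis the median of 12 sarcoids, each as log2 of CPM plus 0.5 over the median of 11 skin libraries plus 0.5. The 11 orange genes lie near or above 0 in skin 9, and the 37 purple genes below it, while both groups cover overlapping ranges on the sarcoid axis.

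Both groups of genes were low in every tumour. In the 11 genes kept in skin 9, the median relative level ran from -4.14 in sarcoid 9 to -2.27 in sarcoid 10, and in the other 37 it ran from -5.06 in sarcoid 4 to -1.79 in sarcoid 6. The median log2 fold change against all 12 skin libraries was -4.48 in the 11 genes and -3.21 in the 37. Skin 9 is among those 12 libraries and is high in the first group and low in the second. These groups were formed after the values were seen, so no difference between them was tested. With skin 9 kept in the skin reference, only the 11 genes met the rule, which follows largely from how the groups were formed.

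The title numbers 2, 3, 6, 9 and 11 occur in both groups, and the labels do not say whether they mark the same horse. All 48 genes were lower in the sarcoid than in the skin piece of the same number for 2, 3, 6 and 11. These skin pieces belong to the skin reference, so the rule fixed that count in advance. The median differences for these numbers on the log2 CPM scale were -2.03, -4.39, -1.84 and -2.80. For number 9, where the skin piece is skin 9 with its untested label, 40 of the 48 genes were lower in the sarcoid, with a median difference of -1.22. Sarcoid 9 entered the rule, and the share over all genes tested is not given here, so nothing is read from this count. The summed level of the set was 70.5 CPM in sarcoid 9, the lowest of all tumours, and 1299 CPM in skin 9.

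The 4 sarcoids with an L in the title (65L, 67L, 71L and 74L) were compared with the 8 without, a contrast within the tumours that the rule did not use. No gene of the set passed the test. Of the 48 genes 41 were kept by the filter within the sarcoids, and 0 passed (edgeR quasi-likelihood test, lowest adjusted p = 0.490), as did 0% of the 15246 genes tested. At an unadjusted p under 0.05 there was 1 of the 41 genes, and 1382 of the 15246. With DESeq2, 137 genes passed, again 0 of them from the set.

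The summed level of the set was 73.96 to 491 CPM in the 4 tumours with an L, with a median of 233 CPM. It was 70.5 to 850 CPM in the other 8, with a median of 277 CPM. The ranges overlapped, and sarcoids 6, 10 and 2, all without an L, lay above every tumour with an L. The log2 fold change was below 0 in 37 of the 41 genes (90.2%) with a median of -0.58, while 54.3% of all genes tested were below 0. Single tumours moved that median, to -1.08 without 65L and to -0.38 without 74L or without sarcoid 6, and it was -0.99 with libraries scaled by size alone. Since the genes vary together within the tumours, the 37 are not independent.

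Gene 20 had the largest difference in this contrast, -2.11 ± 0.77 on the log2 scale (SE, edgeR adjusted p = 0.490). Its level was 0.261 to 2.15 CPM in the 4 tumours with an L and 1.11 to 9.06 CPM in the other 8, so the groups overlapped. The 95% interval held 0 for 40 of the 41 genes and held a 2-fold lower level with an L for 40, so differences of that size cannot be told from none at this number of tumours. Gene 15 had the narrowest interval, 0.00 ± 0.61 on the log2 scale.

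**Figure D5:**
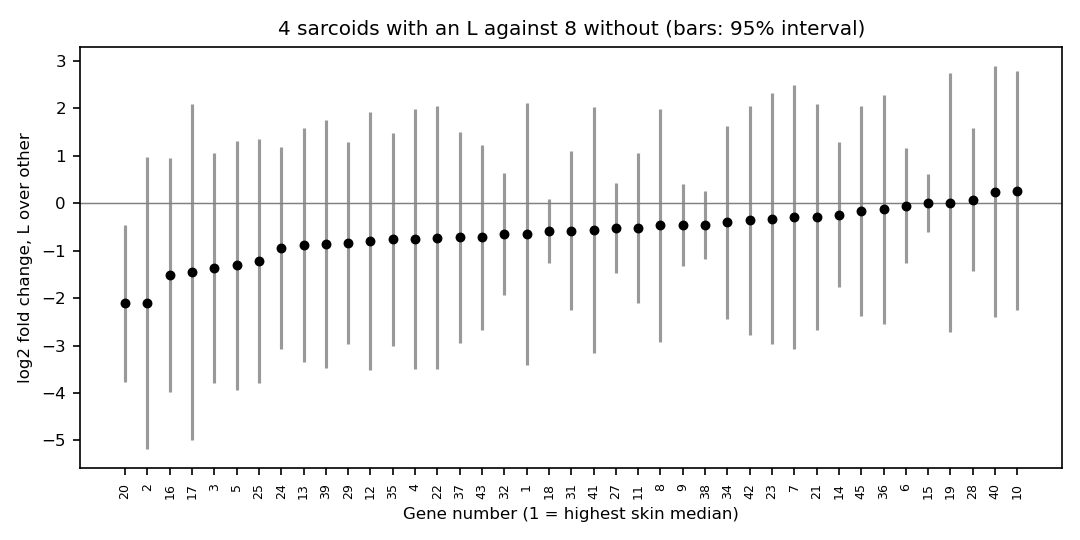
Points give the log2 fold change of the 4 sarcoids with an L over the 8 without, for the 41 genes tested, ordered by value and labelled by gene number, with bars for the 95% interval. Most points lie below 0, and all but 1 of the intervals cross 0.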

How the data were processed

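The authors deposited raw read counts per gene, 1 file per library, and each file ends with 5 summary rows (72.6% to 86.6% of all reads), which were left out. Per the submitters' processing notes the build was EquCab3.0 and the tools were TopHat2, HTSeq, FastQC and DESeq2, listed with no role or version. The strand setting and the gene annotation used are not stated in any source used here, so genes with near-identical copies or antisense partners are uncertain. In R 4.3.3, genes were kept with filterByExpr, and edgeR 4.0.16 scaled libraries by TMM (factors 0.468 to 1.60) and gave CPM and quasi-likelihood tests, with Benjamini-Hochberg adjustment over all genes at 0.05. SE is the log2 fold change over the square root of F. Correlations and SDs used log2 CPM with a prior count of 2. The fits were tested on simulated data. Alternatives used DESeq2 1.42.0, limma 3.58.1, other scalings and filters, and left-out libraries.

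The genes and tests were chosen with earlier results of these data known. Groups follow the tissue label, and nothing says that pieces came from separate horses, so p-values measure the spread between pieces. The naming rule, in the absence of symbols, gave the ID of the gene with the widest gap and of the gene with the highest skin level. The other 46 carry a number, and those described singly were picked after their values were seen. The lists of cell type markers were not applied, because no ID could be matched to a symbol. Without molecular identifiers reads are not independent molecules, so floors cover counting error only.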

Additional observations from a re-analysis of the deposited data

Results flagged for a closer look

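Among the 4 sarcoids with an L, ENSECAG00000039827 stood apart in sarcoid 67L, at 0.0933 CPM, while the other 3 had no read. That value is a single read. With groups of this size, about 1 in 20 is picked out by chance.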

How the results depend on the processing

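The number of genes meeting the rule depends on the scaling and on single libraries. It was 48 with TMM, 54 with RLE and 42 with upper-quartile factors, but 9 with library size alone, 8 of them from the 48. It was 11 with skin 9 in the reference, 706 when any gap was enough and 1 when the highest sarcoid had to be at most 0.25 times the lowest skin library. Leaving out 1 library gave 46 (sarcoid 4) to 110 genes (sarcoid 6), with 104 without skin 16 and 80 without sarcoid 2. In alternatives chosen after seeing the data, it was 106 without skin 9, skin 16 and sarcoid 4, and 161 without sarcoids 6 and 10. All 48 genes were called lower with RLE factors, with library size alone, with no filter, with DESeq2, with limma voom and without any 1 library. The rule used this contrast, so nothing is read from the 48. Over the whole table, 4162 genes were called lower with RLE factors, 3645 with library size alone and 5303 with no filter. With DESeq2 the number was 4361, and with limma voom 3899. The number of genes called lower over the whole table was 3797 to 4085 without any 1 library. The number below the other skin libraries in skin 9 was 37 to 38 without any 1 of the reference libraries and under the scalings tried. With the title number as a replicate block, over the 10 libraries that share one, 40 of the 48 genes and 911 of all genes were called lower. The same 10 libraries without the block gave 20 and 1031, and ENSECAG00000021418 was not called there (-2.33, edgeR adjusted p = 0.172). Deviations of same-numbered libraries correlated between -0.03 and 0.49, highest for number 9. With so few numbers this cannot decide whether pieces share a horse. The labels do not state pairing, so the numbers were not taken as pairs. For the sarcoids with an L, 0 genes were called without any 1 tumour and 137 with DESeq2. The cause of these changes was not tested, and fewer libraries entered the fits over 10. The 9 genes with a sarcoid median under 0.553 CPM have folds limited by depth.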
